A study of Rattus norvegicus with 13 samples.

Results

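Synaptic vesicles release transmitter when SNARE proteins on the vesicle and on the plasma membrane zip together, and the genes of that machinery were examined in the rat hypothalamus. The members were picked by gene symbol and level, with earlier results of these data known. They come from the synaptotagmin, syntaxin, syntaxin-binding, Vamp, Snap, Rims, complexin, Unc13, synapsin, Sv2 and Rab3 families. Per symbol 1 row was kept, where the average across rats reached 0.5 FPKM. FPKM are fragment counts scaled to transcript length and to the mapped total, so levels of different genes can be set side by side. The deposited values cover 17366 rows. Of these, 71 symbols matched the families and 67 were members, all of them among the 11837 genes tested. The other 4 (Cplx4, Syt8, Syt15 and Stx11) lay between 0.0944 and 0.385 FPKM, and the lowest members, Cplx3 and Stx19, had means of 0.541 and 0.642 FPKM.

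RNA of whole hypothalamus was sequenced from 13 rats (Rattus norvegicus), of which 7 ate standard chow (0.30% fructose) and 6 a high-fructose diet (55% fructose), both from postnatal day 25. All 13 were fasted overnight on day 79 and killed on day 80, an hour after an injection into the abdomen of either glucose (2 g per kg) or saline, and the protocol text counts 31 rats given glucose and 29 given saline, more than were sequenced. Which injection each sequenced rat received, its sex, its cage and its batch were not stated. Each library is 1 animal, and p-values set the difference between the diets against the spread between these libraries. Animals were pair-housed, and without cage labels every rat was treated as independent.

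In a nerve terminal the vesicle SNARE Vamp2 pairs with syntaxins and Snap25 on the plasma membrane. Syntaxin-binding proteins and Munc13 (Unc13) proteins prepare that pairing, complexins clamp and support it, and synaptotagmins trigger fusion when calcium enters. RIM proteins and Rab3 tie vesicles to the active zone, synapsins hold the reserve pool, and SV2 proteins are vesicle glycoproteins. In the hypothalamus the same machinery serves fast transmission and the release of peptides from dense-core granules.

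The FPKM of a rat summed to between 556902 and 608058, and no library duplicated another. Of the tissue's own markers, Pmch stood between 1345 and 7136 FPKM and Hcrt between 217 and 1012 FPKM, whereas the arcuate markers Agrp and Pomc reached at most 1.92 and 14.2 FPKM and Npy was listed at 0 in all 13 rats. Oxt ranged from 2.04 to 1455 FPKM. Markers of neighbouring tissue differed between the diets. Of 17 thalamus markers 11 were lower and 0 higher on fructose (limma, with 13 and 1 at an unadjusted p under 0.05), and their summed level was 450 to 1435 FPKM on chow and 210 to 756 FPKM on fructose. All 12 tested markers of midbrain dopamine neurons were higher, with sums of 108 to 143 FPKM on chow and 253 to 664 FPKM on fructose. Both lists were chosen with earlier results of these data known, so their counts are descriptions and no independent support. No measured marker on either list was at 0 in every rat.

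Of the 67 vesicle and SNARE genes 64 did not pass the test between the diets. The genes that passed the test were Syt9, Vamp2 and Rims1, and all were lower on fructose. They are 3 of 67 members, or 4.48%, against 3.94% of all genes tested in either direction, and against 2.27% called lower. This share is near the background and is no result about the group as a whole. No member was called higher (limma, 4 at an unadjusted p under 0.05, 3 by the exact permutation test), against 1.66% of all genes. The median log2 fold change was 0.02 over the members and 0.00 over all genes tested, and 33 of 67 members lay below 0. At an unadjusted p under 0.05 stood 18 members (26.9%, against 19.2% of all genes), 14 of them lower (20.9% against 10.6%) and 4 higher (5.97% against 8.59%). Changes were called with limma at a Benjamini-Hochberg adjusted p under 0.05 over all genes tested. Below, levels are group means ± SD in FPKM, chow (n = 7) before fructose (n = 6), and differences are log2 fold changes ± SE of fructose against chow.

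**Figure D1:**
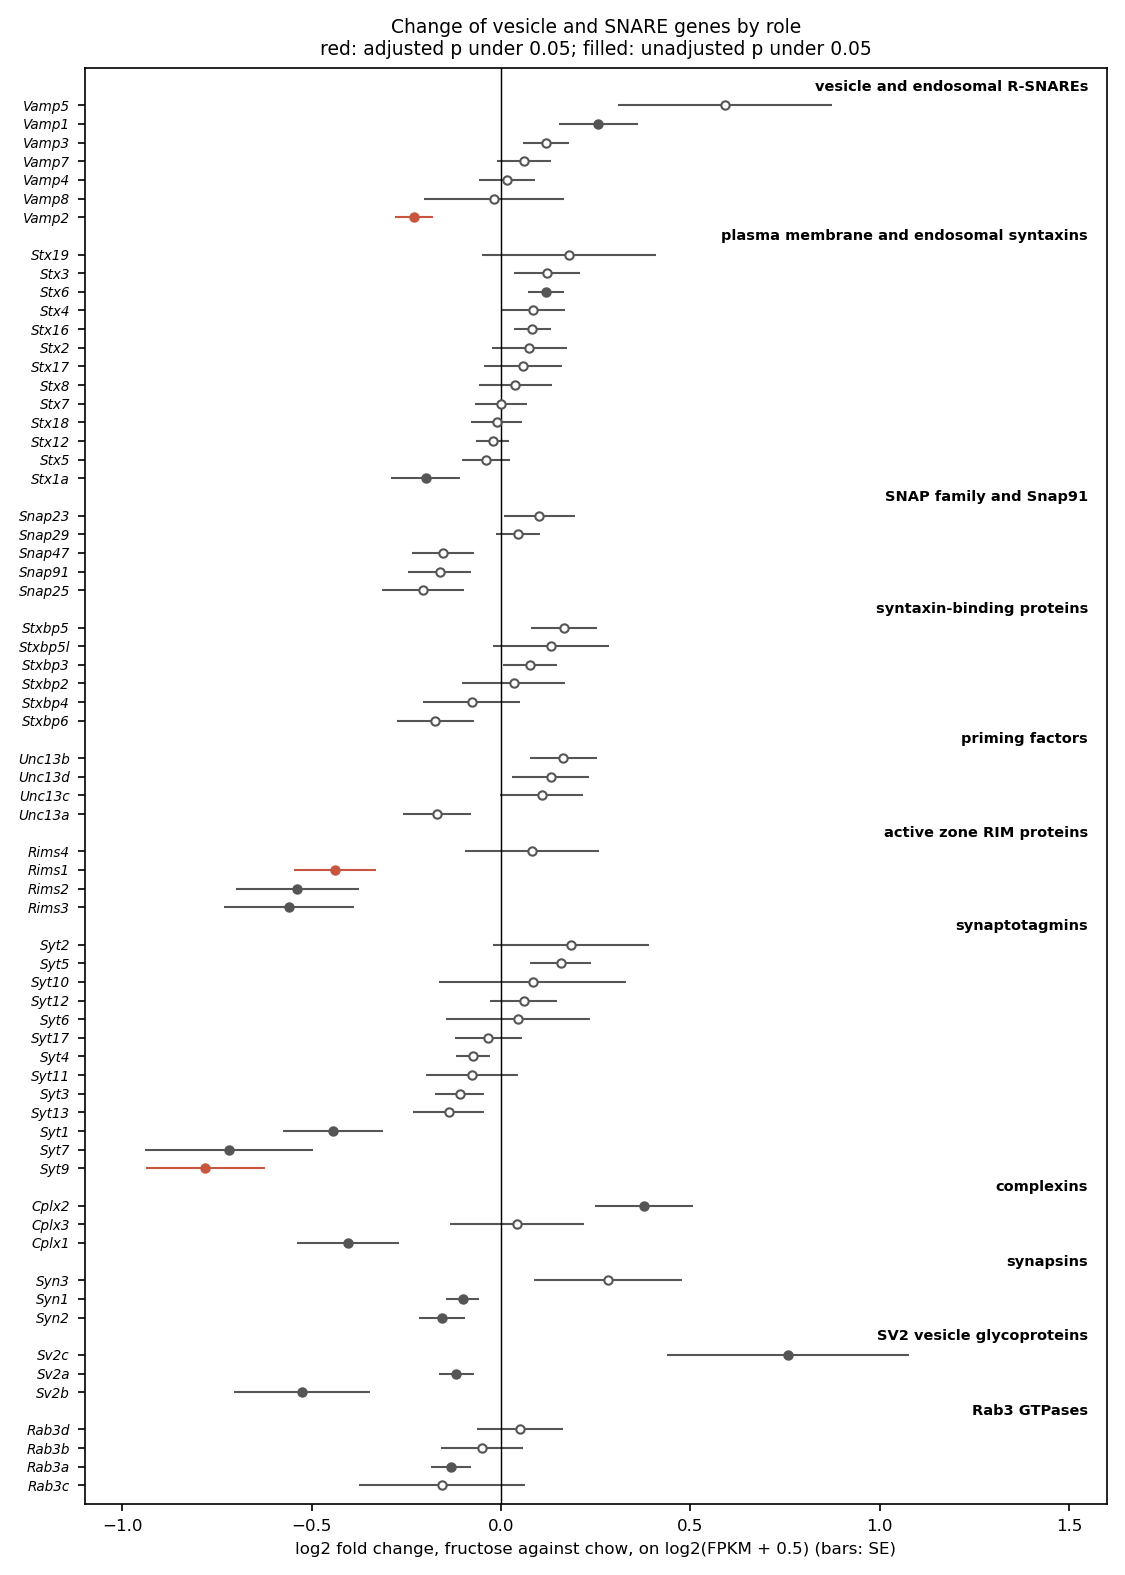
Log2 fold change of fructose against chow, on the log2(FPKM + 0.5) scale, for 65 of the 67 members by role, with bars for the SE. Red points are the 3 members with an adjusted p under 0.05 (Syt9, Vamp2 and Rims1), filled points have an unadjusted p under 0.05, and most members lie within 0.3 of 0.

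The RefSeq promoters of the 3 called genes are shown because these members moved the same way. Each line gives the 250 bases before the annotated start in the rat build GRCr8, which is not the build of the deposited table. Capitals mark the GC box GGGCGG on either strand, a letter match to the sequence that Sp factors bind.
Syt9, chr1:170687555-170687804, strand plus: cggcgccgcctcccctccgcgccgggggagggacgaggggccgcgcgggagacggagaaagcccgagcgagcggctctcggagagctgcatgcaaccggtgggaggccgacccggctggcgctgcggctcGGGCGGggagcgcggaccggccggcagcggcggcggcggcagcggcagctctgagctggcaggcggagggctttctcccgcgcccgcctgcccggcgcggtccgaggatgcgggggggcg
Vamp2, chr10:54292539-54292788, strand plus: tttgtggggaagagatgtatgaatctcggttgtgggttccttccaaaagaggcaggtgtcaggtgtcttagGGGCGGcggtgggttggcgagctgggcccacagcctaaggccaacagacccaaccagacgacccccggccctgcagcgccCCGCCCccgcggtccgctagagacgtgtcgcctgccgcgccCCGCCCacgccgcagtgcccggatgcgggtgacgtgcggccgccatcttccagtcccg
Rims1, chr9:32692773-32693022, strand minus: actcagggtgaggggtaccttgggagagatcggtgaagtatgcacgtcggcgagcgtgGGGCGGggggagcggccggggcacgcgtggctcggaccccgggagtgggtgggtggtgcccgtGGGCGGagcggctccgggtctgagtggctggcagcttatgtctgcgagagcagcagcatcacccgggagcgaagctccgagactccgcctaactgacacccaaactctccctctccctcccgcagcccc
All 3 windows held at least 1 GC box, Vamp2 3 of them. RefSeq gave a promoter for 52 members, and 33 of them held a GC box (63.5%), against 30.5% of all 33469 promoters. The cAMP response element TGACGTCA, searched on both strands, was in the windows of Syn1 and Vamp1 among the members (3.85%, against 1.59% of all promoters). The set of all promoters was not limited to genes tested here, whereas members were kept by their level, so these shares compare unlike sets. A match says that these letters are present and nothing about binding.

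Syt9 encodes a synaptotagmin, a calcium sensor of vesicle fusion. Its level on chow was lowest at 17.2, with a median of 22.9 and a highest value of 35.2 FPKM, and on fructose 8.70, 13.8 and 16.1 FPKM. Every fructose rat lay below every chow rat, and chow rat 2 was well above the other chow rats. Chow rats averaged 23.5 ± 5.99 FPKM (SD, n = 7) and fructose rats 13.4 ± 2.58 FPKM (SD, n = 6). The log2 fold change was -0.78 with an SE of 0.16 (limma adjusted p = 0.0238). Without fructose rat 4 the call was lost (limma adjusted p = 0.0584), and it was kept in the other 12 fits with 1 rat left out.

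Vamp2, synaptobrevin 2, is the main vesicle SNARE of the brain and among the most abundant transcripts here, at rank 116 of the genes tested. On chow it ranged from 622 to 704 FPKM with a median of 652, and on fructose from 500.0 to 607 FPKM with a median of 570 FPKM. The diets did not overlap, and the chow rats spread little, with a coefficient of variation of 4.19%. The log2 fold change was small, -0.23 ± 0.05 (SE, limma adjusted p = 0.0296, 660.7 ± 27.7 FPKM on chow and 564 ± 39.9 FPKM on fructose). Its call was lost without chow rats 2, 4 or 7 (limma adjusted p = 0.0641, 0.0654 and 0.0535) and without fructose rats 2, 4 or 6 (0.0607, 0.0703 and 0.0636). Syt9 and Vamp2 are the 2 members whose diets did not overlap. That is 2.99% of members, both lower, against 1.61% of all genes tested in either direction (0.727% lower and 0.879% higher).

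Rims1 encodes RIM1, the scaffold that links vesicle-bound Rab3 to Munc13 and to calcium channels at the active zone. Its lowest, median and highest values were 16.7, 21.6 and 27.4 FPKM on chow and 12.1, 16.1 and 17.9 FPKM on fructose. One fructose rat, rat 1, lay within the chow range, and the other 5 lay below it. The log2 fold change was -0.44 ± 0.11 (SE, limma adjusted p = 0.0389, 21.2 ± 3.39 and 15.5 ± 2.09 FPKM). The call held in 4 of 13 fits with 1 rat left out, those without chow rats 1 or 6 or fructose rats 1 or 5. In the others the adjusted p lay between 0.0511, without fructose rat 3, and 0.0919, without fructose rat 4.

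The count of calls among the members moved with single rats, and so did the count over all genes. It was 8 without chow rat 1 (7.26% of all genes then called) and 6 without chow rat 6 (3.71%). It was 4 without fructose rat 1 or 5 (4.00% and 5.06% of all genes). It was 2, Syt9 and Vamp2, without chow rats 3 or 5 or fructose rat 3 (2.57%, 1.58% and 2.85% of all genes). It came to 1, Syt9 each time, without chow rats 2, 4 or 7 or fructose rats 2 or 6, where 0.752% to 1.29% of all genes were called. Without fructose rat 4 limma called 0 members, with 17 at an unadjusted p under 0.05, and 0.701% of all genes. The members called when chow rat 1 was left out were Syt9, Vamp2, Rims1, Rims2, Syt7, Sv2b, Cplx1 and Rab3a, all lower on fructose.

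**Figure D2:**
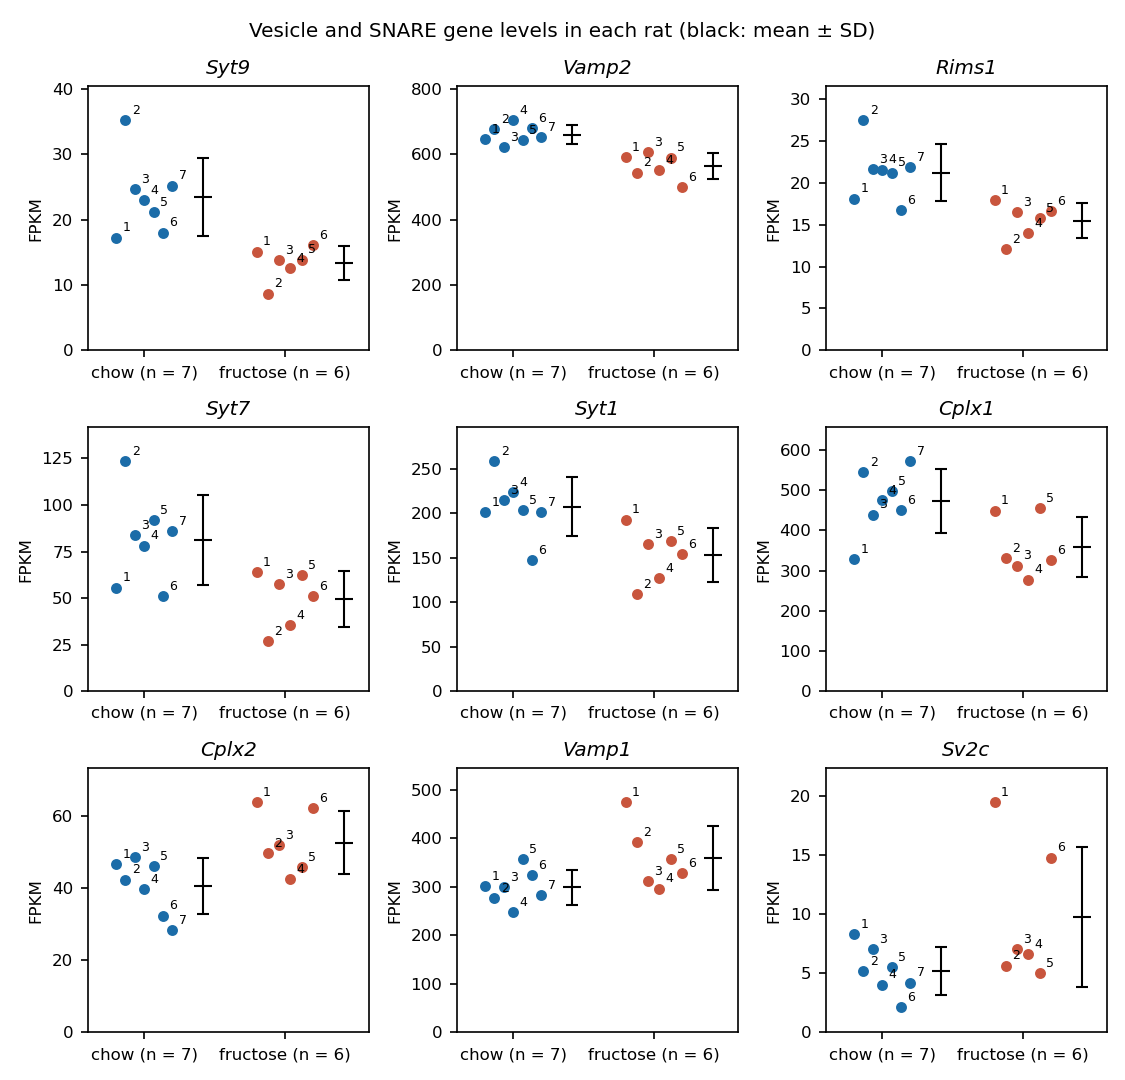
FPKM in each rat for 9 members, with chow rats in blue and fructose rats in red, the replicate number beside each point, and the mean ± SD in black. Syt9 and Vamp2 show no overlap between the diets, whereas Cplx2, Vamp1 and Sv2c overlap and Sv2c is highest in fructose rats 1 and 6.

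Fewer cells of a type and less RNA per cell cannot be told apart in whole tissue. Chow rat 2 held the highest value of 21 of the 67 members and fructose rat 2 the lowest of 13. Both were true for 12 members, among them Rab3c, Rims1, Rims2, Rims3, Sv2b, Syn2, Syt1, Syt3, Syt7, Syt9 and Unc13a. The summed thalamus markers were highest in chow rat 2 (1435 FPKM) and lowest in fructose rat 2 (210 FPKM) as well. This was not particular to thalamus markers. Summed general neuron markers were also highest in chow rat 2 (6285 FPKM), but lowest in fructose rat 6 (4882 FPKM). Summed vesicle endocytosis genes were highest in chow rat 2 (3203 FPKM) and lowest in fructose rat 2 (2627 FPKM). Summed Rab regulators of release were highest in chow rat 4 (1373 FPKM). Chow rat 1, without which more members were called, had the lowest thalamus sum of the chow rats (450 FPKM), below 3 of the fructose rats. Its general neuron sum was also the lowest of the chow rats (5209 FPKM). The part of thalamus tissue in the values of these genes was not tested. Of 15 general neuron markers outside the members 1, Thy1, was lower on fructose and 0 higher (limma, 4 and 0 at an unadjusted p under 0.05), with sums of 5209 to 6285 FPKM on chow and 4882 to 5537 FPKM on fructose. Of 9 tested astrocyte markers Gfap and Aqp4 were higher, and the sums of 2154 to 2288 FPKM on chow and 2338 to 2556 FPKM on fructose did not overlap. What these differences contribute was not tested.

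**Figure D3:**
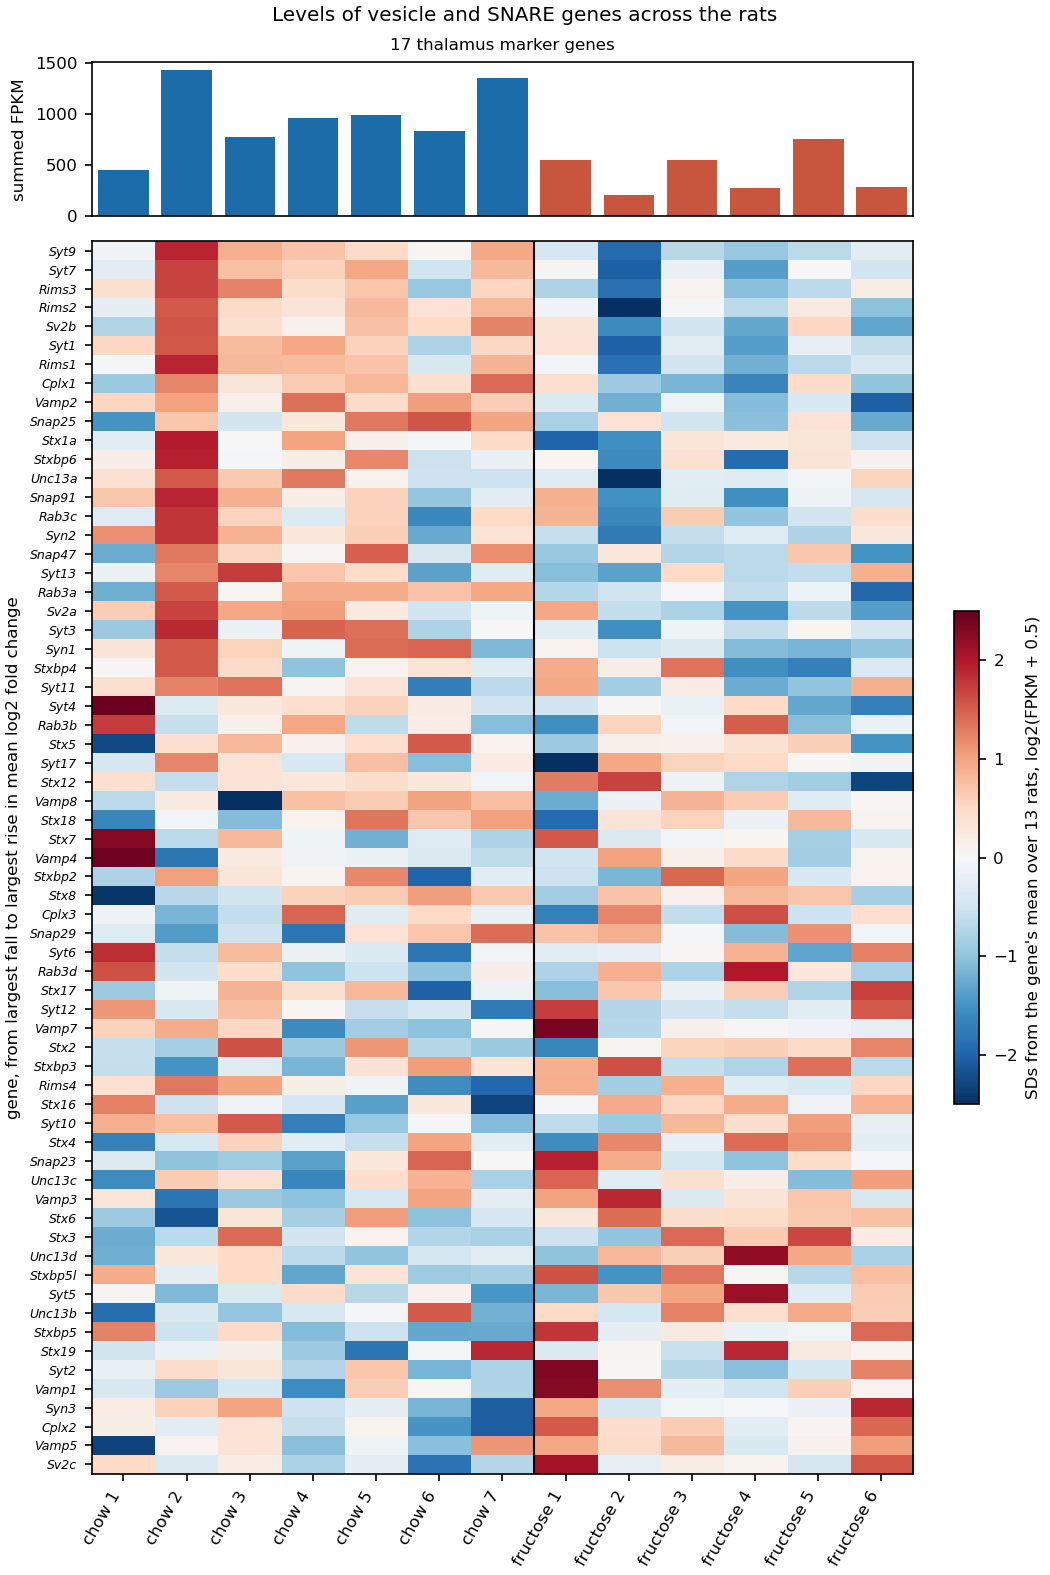
Each row is 1 of 65 members and each column a rat, coloured by the distance from the gene's mean over 13 rats in SDs of log2(FPKM + 0.5), with genes ordered by log2 fold change and the bars above giving the summed FPKM of 17 thalamus markers. Chow rat 2 is high and fructose rat 2 low across the upper rows, and those rats have the highest and lowest bars.

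Of the 6 vesicle SNAREs other than Vamp2 limma called 0, with 1, Vamp1, at an unadjusted p under 0.05 by either test. Vamp1, the form known from fast-firing neurons of the brainstem and spinal cord, stood at 247.8, 300 and 358 FPKM on chow (lowest, median and highest) and at 297, 342 and 474 FPKM on fructose. Its highest value was in fructose rat 1, and 2 fructose rats lay above all chow rats. The log2 fold change was 0.26 ± 0.10 (SE, limma adjusted p = 0.188). Vamp3, a SNARE of recycling endosomes, had a log2 fold change of 0.12 ± 0.06, and Vamp5, at 5.41 ± 2.71 FPKM on chow and 7.76 ± 1.90 FPKM on fructose, one of 0.59, with an SE of 0.28 (limma adjusted p = 0.270). Vamp4, Vamp7 and Vamp8, which act at endosomes, lysosomes and the Golgi, had log2 fold changes between -0.02 and 0.06.

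Differences of the syntaxins were small. Limma called 0 of 14 genes, with 2 at an unadjusted p under 0.05 and 1 by the exact permutation test, and no log2 fold change exceeded 0.3 in size. Stx1a, a neuronal syntaxin of the plasma membrane, stood at 44.1 ± 5.14 and 38.5 ± 5.30 FPKM, or -0.20 ± 0.09 on the log2 scale (SE, limma adjusted p = 0.250). Stx6, a syntaxin of the Golgi and endosomes, stood at 45.3 ± 3.14 and 49.1 ± 1.32 FPKM (0.12 ± 0.05, limma adjusted p = 0.194). Other syntaxins, of which Stx19 was the lowest in level, had log2 fold changes between -0.04 and 0.18. Stx12, an endosomal syntaxin, varied least of all members between chow rats, with a coefficient of variation of 1.73% around 105 FPKM. Over all members the median of that coefficient was 13.7%, against 11.2% over all genes tested.

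Snap25 was the most abundant member, at rank 31 of all genes tested. It ranged from 927 to 1515 FPKM on chow and from 962 to 1248 FPKM on fructose, and the diets overlapped throughout (-0.21 ± 0.11, limma adjusted p = 0.320). Its broadly expressed relative Snap23 stood at 9.45 ± 1.18 and 10.2 ± 1.37 FPKM. Snap29 and Snap47, which act in other membrane traffic, had log2 fold changes of 0.04 and -0.15. Snap91, which is the clathrin adaptor AP180 of vesicle recycling and no SNARE, stood at 103 ± 11.6 and 92.1 ± 10.4 FPKM. Limma called 0 of the 5 genes of this group, also with 0 at an unadjusted p under 0.05 in limma and in the exact permutation test.

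The factors that prepare fusion showed small differences. Unc13a, the main Munc13 of glutamate synapses, stood at 32.1 ± 3.52 and 28.6 ± 3.66 FPKM, a log2 fold change of -0.17 ± 0.09. Its relatives Unc13b, Unc13c and Unc13d lay between 0.11 and 0.16. Of 7 syntaxin-binding genes and 4 Unc13 genes limma called 0, and 0 had an unadjusted p under 0.05 by either test. Stxbp5, tomosyn, which holds back SNARE assembly, had a log2 fold change of 0.17 ± 0.09. Of the other syntaxin-binding genes, Stxbp2, Stxbp3, Stxbp4, Stxbp5l and Stxbp6, lay between -0.17 and 0.13.

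Rims1, Rims2 and Rims3 had log2 fold changes of -0.44 and below, and Rims4 one of 0.08. At an unadjusted p under 0.05 stood 3 of these 4 genes, all lower, by limma and by the exact permutation test. Of all genes tested 10.6% stood lower at that level by limma. All 3 were highest in chow rat 2 and lowest in fructose rat 2, so their values moved together across rats. Rims2 had lowest, median and highest values of 30.4, 37.4 and 51.3 FPKM on chow and 15.4, 29.2 and 34.7 FPKM on fructose, with 3 of 6 fructose rats below all chow rats. Its log2 fold change was -0.54 ± 0.16 (SE, limma adjusted p = 0.0750). Rims3, a short form that lacks the Rab3-binding part, stood at 50.8 ± 12.3 and 34.1 ± 7.84 FPKM (-0.56 ± 0.17, limma adjusted p = 0.0805). Rims4, the other short form, stood at 10.4 ± 3.00 and 10.8 ± 1.98 FPKM. For Rims1, Rims2 and Rims3 alike, 6 of 6 fructose rats lay under the average chow level. Rims2 was called without chow rat 1 or fructose rat 5 (limma adjusted p = 0.0415 and 0.0439), and Rims3 without chow rat 6 (0.0304).

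Among 13 synaptotagmins Syt9 passed and 12 did not, and 3 stood at an unadjusted p under 0.05, all lower, by either test. That is 23.1% lower by limma, against 10.6% of all genes. Syt1, the fast calcium sensor of most forebrain synapses, had lowest, median and highest values of 148, 204 and 258 FPKM on chow and 109, 160 and 193 FPKM on fructose (-0.44 ± 0.13, limma adjusted p = 0.0721). Fructose rats 2 and 4 lay below all chow rats. Syt7, a slow high-affinity sensor, was singled out after its values were seen, at 81.4 ± 24.2 FPKM on chow and 49.6 ± 15.1 FPKM on fructose (-0.72 ± 0.22, limma adjusted p = 0.0832). Syt2, the fast sensor of hindbrain synapses, ranged from 19.7 to 34.0 FPKM on chow and from 20.4 to 54.8 FPKM on fructose, where rats 1 and 6 lay above all others. Syt11, the most abundant member of the family and one that does not bind calcium, stood at 261 ± 44.5 and 247 ± 40.6 FPKM. Syt4, its relative on dense-core granules, stood at 106 ± 5.69 and 100.7 ± 4.45 FPKM, and Syt10, the lowest, at 1.44 ± 0.745 and 1.48 ± 0.509 FPKM. Syt5, a vesicle synaptotagmin found also on dense-core granules, stood at 95.1 ± 7.94 and 106.6 ± 14.3 FPKM (0.16 ± 0.08, limma adjusted p = 0.310), with 4 of 6 fructose rats above all chow rats. The other 5 synaptotagmins, Syt3, Syt6, Syt12, Syt13 and Syt17, lay between -0.14 and 0.06. Syt1 was called without chow rat 6 or fructose rat 1 (limma adjusted p = 0.0353 and 0.0442) and Syt7 without chow rat 1 (0.0449).

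The abundant complexins had differences of opposite sign, each at an unadjusted p under 0.05 by both tests. Cplx1 had lowest, median and highest values of 329, 475 and 571 FPKM on chow and 278, 328 and 456 FPKM on fructose. Fructose rats 1, 2 and 5 lay within the chow range, whose lowest value was that of chow rat 1, and the other 3 lay below it. Its log2 fold change was -0.40 ± 0.13 (SE, limma adjusted p = 0.108, and 0.0238 without chow rat 1). Cplx2, the form more typical of forebrain glutamate neurons, had values of 28.4, 42.3 and 48.6 FPKM on chow and 42.4, 50.8 and 63.7 FPKM on fructose. Here 4 of 6 fructose rats lay above all chow rats and all 6 lay above the chow mean (0.38 ± 0.13, limma adjusted p = 0.118). Neither passed the test, and Cplx3, the form known from retinal ribbon synapses, stood near the lowest level kept.

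Limma called 0 of 3 synapsins and 0 of 3 SV2 genes. At an unadjusted p under 0.05 stood 2 synapsins, both lower, and 3 SV2 genes, 2 lower and 1 higher (2 of each family by the exact permutation test). Of all genes tested 10.6% stood lower and 8.59% higher at that level by limma. Syn1 stood at 181 ± 9.91 FPKM on chow and 169 ± 4.67 FPKM on fructose, and Syn2 at 119 ± 10.2 and 107 ± 6.53 FPKM (-0.10 ± 0.04 and -0.16 ± 0.06, limma adjusted p = 0.203 and 0.168). Syn3, at 4.83 ± 1.47 and 5.93 ± 1.75 FPKM, had a log2 fold change of 0.28 ± 0.20. Sv2a, the widespread SV2 form, stood at 284 ± 14.1 and 262 ± 15.8 FPKM (-0.12 ± 0.05). Sv2b, a form of many glutamate neurons, stood at 39.9 ± 9.22 and 27.8 ± 8.05 FPKM (-0.53 ± 0.18, limma adjusted p = 0.116). Sv2c, known from the basal ganglia and midbrain dopamine neurons, had lowest, median and highest values of 2.13, 5.15 and 8.30 FPKM on chow and 5.01, 6.83 and 19.5 FPKM on fructose. Its high values were those of fructose rats 1 and 6, at 19.5 and 14.8 FPKM, and the other 4 lay within the chow range. The log2 fold change was 0.76 ± 0.32 (SE, limma adjusted p = 0.206). Summed dopamine-neuron markers stood at 664 FPKM in fructose rat 1 and at 253 FPKM in fructose rat 6, and their part in the Sv2c values was not tested.

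Of the Rab3 GTPases, which mark vesicles ready for release, Rab3a ranged from 586 to 723 FPKM on chow and from 554 to 643 FPKM on fructose (-0.13 ± 0.05, limma adjusted p = 0.186), and it was the 1 of 4 at an unadjusted p under 0.05. Rab3c stood at 49.5 ± 16.0 and 44.1 ± 12.7 FPKM, with a spread between rats far wider than the difference. Rab3b and Rab3d had log2 fold changes of -0.05 and 0.05. Syn2 and Rab3a were called in 1 of 13 fits each, Syn2 without chow rat 6 (limma adjusted p = 0.0493) and Rab3a without chow rat 1 (0.0436).

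Ratios within a rat do not depend on how a library was scaled, and 10 pairs of related genes were compared in this way, as descriptions with no test. Cplx1 exceeded Cplx2 by 7.06 to 20.1 times on chow and by 5.24 to 9.97 times on fructose. The log2 ratio was 3.55 ± 0.48 (SD, n = 7) and 2.76 ± 0.31 (SD, n = 6), and 5 of 6 fructose rats lay below all chow rats. Vamp1 was 0.352 to 0.557 of Vamp2 on chow and 0.513 to 0.802 on fructose, with 4 of 6 fructose rats above all chow rats. The log2 ratio of Syt2 to Syt1 averaged -2.97 ± 0.24 on chow and -2.34 ± 0.48 on fructose, where rats 1, 2 and 6 lay above all chow rats. For Sv2c to Sv2a the mean log2 ratio was -5.88 ± 0.60 on chow and -4.94 ± 0.76 on fructose, and 2 fructose rats lay above all chow rats. Unc13a to Unc13b stood at 2.76 ± 0.28 and 2.41 ± 0.14, with 1 fructose rat below all chow rats. The ratios Syn2 to Syn1 and Rab3c to Rab3a differed between the diets by -0.05 and -0.03 in their means. Of the other pairs, Sv2b to Sv2a differed by -0.42, and Rims1 to Rims2 and Snap23 to Snap25 by 0.10 and 0.31.

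**Figure D4:**
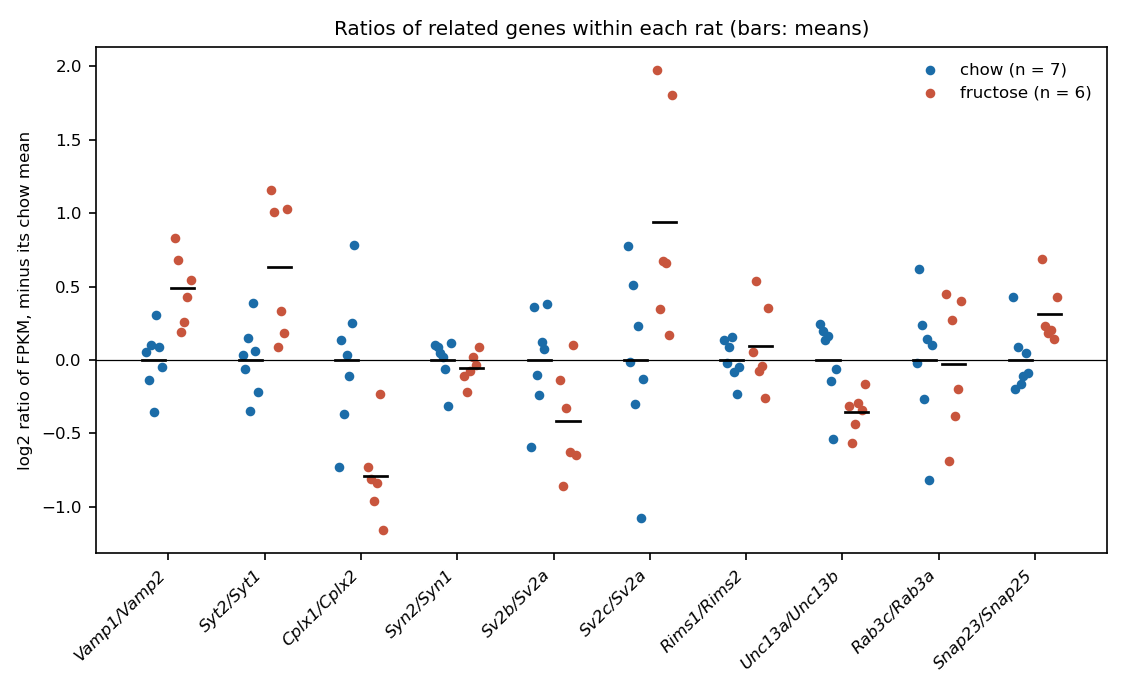
Log2 ratio of the FPKM of 2 related genes within each rat, minus the chow mean of that pair, with chow rats in blue, fructose rats in red and bars for the means. Cplx1/Cplx2 is lower and Vamp1/Vamp2 higher in all 6 fructose rats than the chow mean, and Syn2/Syn1 and Rab3c/Rab3a are centred near 0.

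Direction went with abundance among the members, as a description. Of the 15 members with a mean of at least 100 FPKM 12 lay below 0 on the log2 fold change scale, against 61.4% of all genes tested at that level. Of 35 members between 10 and 100 FPKM 20 lay below 0 (57.1% against 56.8%), and of 17 members under 10 FPKM 1 did (5.88% against 37.5%). The 5 most abundant members, among them Snap25, Rab3a, Vamp2 and Cplx1, made up 50.3% of the summed level of all 67. That sum averaged 6727 ± 364 FPKM in chow rats (SD, n = 7) and 6127 ± 299 FPKM in fructose rats (SD, n = 6), with ranges of 6104 to 7257 and 5725 to 6534 FPKM.

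Other genes of the vesicle cycle, outside the symbol families, gave 0 limma calls among 71 tested, where 3.94% of all genes were called. At an unadjusted p under 0.05 limma put 19 (26.8%, against 19.2% of all genes), 16 of them lower (22.5% against 10.6%). The exact permutation test put 15 at that level. Without chow rat 1 limma called 8 of the 71, where 7.26% of all genes were called. Without fructose rat 1 or 5 it called 1 each, where 4.00% and 5.06% of all genes were called. Their median log2 fold change was -0.10, against 0.00 over all genes, and 54 of 71 lay below 0 (76.1%, against 49.7% of all genes). Among all genes, 61.4% of those with at least 100 FPKM and 56.8% of those between 10 and 100 FPKM lay below 0. Of the 71 vesicle cycle genes, 15 encode NSF, its SNAP cofactors and other fusion factors, and 4 had an unadjusted p under 0.05, all lower. Napg, gamma-SNAP, stood at 69.3 ± 3.91 FPKM on chow and 62.3 ± 3.32 FPKM on fructose (-0.15 ± 0.05, limma adjusted p = 0.0918). Of 13 active zone scaffold genes 2 stood at that level, both lower, among them Bsn, bassoon (-0.33 ± 0.10, limma adjusted p = 0.0702). Of 15 vesicle membrane and transporter genes 4 stood lower and 1 higher at that level. Syp, synaptophysin, stood at 819 ± 73.6 and 700.4 ± 56.6 FPKM (-0.22 ± 0.07, limma adjusted p = 0.0748). The vesicular glutamate transporter Slc17a7 stood at 37.9 ± 17.9 and 15.1 ± 11.1 FPKM (-1.38 ± 0.48, limma adjusted p = 0.118). Of 19 endocytosis genes 5 stood lower and 1 higher, with the AP2 adaptor subunit Ap2m1 at 616 ± 38.3 and 553 ± 17.5 FPKM (-0.16 ± 0.05, limma adjusted p = 0.0805). The 9 Rab regulators of release held 1 in each direction at that level.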

How the data were processed

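RNA of whole hypothalamus from 13 rats was sequenced. The authors deposited FPKM values in 1 table with a column per rat, and the tools named, per the submitters' processing notes, are Cuffdiff, Cufflinks 2.1.1 and STAR 2.3.0e, on rat build rn5. Their roles, settings and library scaling are not given in the sources at hand. Table columns were matched to rats by title and grouped by the diet label, with replicates numbered in accession order. The deposited FPKM hold no counts and the depth is unknown. The spacing of low values gave a rough value of 1 read between 0.866 and 1.24 times that of chow rat 1, so precision rests on the spread between rats.

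Values were analysed as log2(FPKM + 0.5), which understates changes of low genes, for the 11837 genes averaging 0.5 FPKM or more. Tests were limma 3.58.1 in R 4.3.3 (trended empirical Bayes, two-sided p adjusted by Benjamini-Hochberg over every gene tested) and, per gene, an exact two-sided permutation test over 1716 splits. In simulated data over 11837 genes, 81 of 100 log2 changes of 0.5 and 94 of 100 of 1 were recovered, with 13 false calls. The changes were put only in genes above a set level, which leaves out the lowest members. Noise was drawn for each gene separately, so no variation was shared between genes. Whether these rates hold for the rats was not tested, and there the count of genes called ran from 83 to 859 with 1 rat left out.

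Members, lists and pairs were chosen with earlier results of these data known. Named members were those called, the 5 with the smallest p in each direction, a fixed core set of 20 genes, and the highest and lowest of each role. Other genes named were chosen after their values were seen. Reads shared between close relatives could be split differently. Other settings tried were a pseudocount of 0.1 or 1, all rows kept, only genes averaging 2 FPKM or more, quantile and median-ratio scaling, robust empirical Bayes, the exact test, and each rat left out. Promoters came from RefSeq (GRCr8) by symbol, 52 of 67 matched. A few members are counted but not reported here by name. Further marker lists gave these counts. Of 10 oligodendrocyte, 10 microglia and 9 endothelium markers limma called 0 (1, 4 and 3 at an unadjusted p under 0.05, all higher, and 0, 3 and 3 by the exact test). Their log2 fold changes lay above 0 for 10, 8 and 8 of them, whereas 13 of 15 general neuron markers lay below 0. Of all genes tested 49.7% lay below 0. Of 5 blood genes 3 were higher. Of 10 cortex and striatum genes limma called 2 higher and 0 lower. That list was split, with 3 higher and 3 lower at an unadjusted p under 0.05, and 6 of 10 genes below 0. Of 19 hypothalamus markers limma called 0 (2 at an unadjusted p under 0.05, 1 by the exact test).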

Additional observations from a re-analysis of the deposited data

Results flagged for a closer look

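In 4 of 70 groups of named members, 1 fructose rat stood apart from the other 5 by Dixon's gap test on log2(FPKM + 0.5), where chance gives about 1 in 20. The gap over the range was 0.712 for Unc13a, where fructose rat 2 was lowest at 21.7 FPKM and the next rat stood at 29.0 FPKM. It was 0.636 for Rab3a, lowest in fructose rat 6 at 554 FPKM with the next at 609 FPKM. For Sv2a it was 0.639, with fructose rat 1 highest at 292 FPKM and the next at 263 FPKM. For Stx19 it was 0.678, with fructose rat 4 highest at 1.41 FPKM and the next at 0.672 FPKM, close to the lowest level kept. No group of chow rats was picked out among these genes.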

How the results depend on the processing

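The count of members called, 3, was the same with pseudocounts of 0.1 or 1, only genes averaging 2 FPKM or more, quantile or median-ratio scaling and robust empirical Bayes. It was 2 with no filter, where Rims1 stood at an adjusted p of 0.0513, and 0 by the exact permutation test, where 16 members had an unadjusted p under 0.05 and Syt9, Vamp2 and Rims1 an adjusted p of 0.0738, 0.0663 and 0.0966. Vamp2 had the smallest p that the exact permutation test can give here, 0.000583, and no gene had a smaller adjusted p than its 0.0663. A gene at the smallest p thus still did not pass, so the 0 of that test says little about single genes. With 1 rat left out the count of members called ranged from 0 to 8. Over all genes the count of 466 came to 308 with no filter, where more genes were tested, to 0 by the exact test (2223 at an unadjusted p under 0.05), and to 83 to 859 with 1 rat left out. Members whose diets did not overlap numbered 2, and 1 with quantile normalization (the cause was not tested), and 2 to 6 with 1 rat left out. Leaving a rat out can add such genes but not remove them. The share of all genes in those fits is not given, so these counts have no background here. The other vesicle cycle genes called numbered 0 to 8 with 1 rat left out. Of 731 values of 35 named members under alternatives 701 kept their side of the threshold, 20 lost a call and 10 gained one, and no called value changed direction. Most named members were uncalled from the start, so the 701 say little about the calls. Syt9 kept its call in 7 of 8 other settings and in 12 of 13 fits with 1 rat left out. For Vamp2 these counts were 7 of 8 and 7 of 13, and for Rims1 6 of 8 and 4 of 13. The 10 ratios moved by less than 1 SD with 0.5 added to both FPKM. No paired analysis was possible because the labels give no replicate numbers that the diets share. Depth is unknown, and values near 0.5 FPKM, as for Cplx3 and Stx19, rest on few reads.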
